A study of Mus musculus with 102 samples.

Results

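The comparison set epidermal stem cells of aged mice (83 to 97 weeks) against those of adult mice (47 to 57 weeks), all kept under calorie restriction (CR) and all collected in the light phase. Its members were chosen by the labels alone and are 17 arrays of the series, beside 85 others: 3 aged and 6 adult arrays at zeitgeber time (ZT) 4 h, and 4 aged and 4 adult arrays at ZT 8 h. The series follows gene expression around the day in both ages, on control diet and under CR. Every mouse of every group was a Per1-Venus BAC transgenic, in which a fluorescent protein reports Per1, on the C57B6/J background. CR meant 30% less food than the ad libitum intake, given for 25 weeks after 3 weeks of adaptation with a 10% cut per week. The series' design text speaks of 1 mouse per diet group killed on each collection day and of 4 mice for each time point and diet, while the adult ZT4 group holds 6 arrays. The labels link arrays neither to days nor to mice, so p-values measure the spread between these samples. In what follows a difference is the log2 value of aged minus adult, averaged with equal weight over ZT4 and ZT8, with its standard error (SE).

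Epidermal stem cells lie in the basal layer of the epidermis, attached to the basement membrane, and renew the barrier by dividing and sending daughters upwards. They run a circadian clock, in which Clock and Arntl activate Per and Cry genes that in turn repress them, and output factors such as Dbp carry the rhythm to other genes. The epidermis also holds Langerhans cells, which present antigen on MHC class II molecules. CR is known to alter metabolism, glucocorticoid levels and rhythms in many tissues.

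Levels of basal keratinocyte markers were high on all 17 arrays. The keratin Krt14 lay at 12.39 to 12.45 on aged and 12.41 to 12.50 on adult ZT4 arrays, and at 12.43 to 12.56 and 12.34 to 12.46 at ZT8. All 10 basal markers passed the filter on low values. Suprabasal keratins were also high, with Krt10 at 11.44 to 11.71 on aged and 11.45 to 11.95 on adult ZT4 arrays, so RNA of differentiating cells was measured too. The Xist level exceeded that of Y-linked genes on 3 of 3 aged and 4 of 6 adult arrays at ZT4, and on 2 of 4 aged and 3 of 4 adult arrays at ZT8, and the sex is not in the labels. Adult ZT4 replicate 5 stood most apart from its group, with a mean correlation of 0.962 against 0.970 to 0.985 on the other 16 arrays.

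No gene passed the threshold of an adjusted p of 0.05 for the age difference in the light phase under CR (limma, Benjamini-Hochberg over 13387 genes, 0% called). An unadjusted p under 0.05 was reached by 731 genes (5.46%), where 669 would be reached if no gene differed. Of these, 277 were higher in aged mice (2.07% of genes tested) and 454 lower (3.39%). The direction of that split rested on single arrays: without aged ZT8 replicate 1 it was 477 higher and 366 lower, and without aged ZT4 replicate 3 it was 301 and 265. It also moved with the scaling, from 37.9% of the genes at this level being higher to 25.0% with the median of each array subtracted and 46.6% with array weights. Without adult ZT8 replicate 4 the total at this level was 320. The median difference over all genes was -0.02 and the median SE 0.12. In simulated data with the spread of these arrays and 200 genes changed at once, the test called 21.2% of genes with a difference of 0.3 and 97.4% of those with a difference of 1. The rates with few genes changed, where the threshold is stricter, were not measured. Only H2-Ab1, Rgcc and Hes7 differed by more than 1 log2 unit. The genes below are therefore described by their values, not as changed.

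Of the 6 genes of smallest p on the lower side, 3 serve MHC class II antigen presentation: the beta chains H2-Eb1 and H2-Ab1 and the invariant chain Cd74. The alpha chain H2-Aa is added to them after its values were seen. H2-Eb1 read 7.40, 7.01 and 7.12 on the aged arrays at ZT4, against 7.28 to 7.77 (median 7.52) on the 6 adult ones. At ZT8 it read 7.62, 7.19, 7.29 and 7.45 on aged and 7.81, 9.03, 7.73 and 8.34 on adult arrays. The ages overlapped at ZT4 and did not overlap at ZT8, where adult replicate 2 was highest. The difference was -0.59 ± 0.12 (limma adjusted p = 0.0920), the smallest p of all genes in the fit over all arrays of the series. With the 17 arrays alone the H2-Eb1 difference was -0.59 ± 0.16 (limma adjusted p = 0.7096). In that fit H2-Ab1, Cd74 and H2-Aa had a limma adjusted p of 0.5582 to 0.7096. Rgcc had a smaller p there than these class II genes (limma adjusted p = 0.0129).

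H2-Ab1 read 6.22, 5.81 and 6.70 on aged arrays at ZT4 and 6.55 to 7.76 (median 7.24) on adult ones. At ZT8 it read 6.73, 6.43, 5.90 and 6.58 on aged and 7.49, 9.60, 7.51 and 7.94 on adult arrays, with no overlap at ZT8 and overlap at ZT4. Its difference of -1.33 ± 0.33 was the largest in size among all genes (limma adjusted p = 0.431). It came from the brightest of 3 probe sets, and the other 2 gave -0.28 ± 0.10 and -0.19 ± 0.10, so the size depends on the probe set. Cd74 read 6.26, 5.50 and 5.68 on aged and 5.93 to 6.94 (median 6.20) on adult arrays at ZT4, then 6.41, 5.66, 6.14 and 6.15 and 6.36, 7.33, 6.64 and 6.49 at ZT8, and the ages overlapped at both times. Its difference was -0.55 ± 0.14 (limma adjusted p = 0.431). H2-Aa differed by -0.45 ± 0.13 (limma adjusted p = 0.648), with aged replicate 1 at ZT8 at 8.39 above 2 of the 4 adult arrays. Its other 2 probe sets gave 0.13 ± 0.37 and -0.40 ± 0.11, and the mean of the 3 gave -0.24 (limma adjusted p = 0.822). Adult ZT8 replicate 2 was the highest of the 17 arrays for all 4 genes, and without it the differences were -0.46 for H2-Eb1, -1.09 for H2-Ab1, -0.44 for Cd74 and -0.33 for H2-Aa (limma adjusted p of 0.714 to 0.827).

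**Figure D1:**
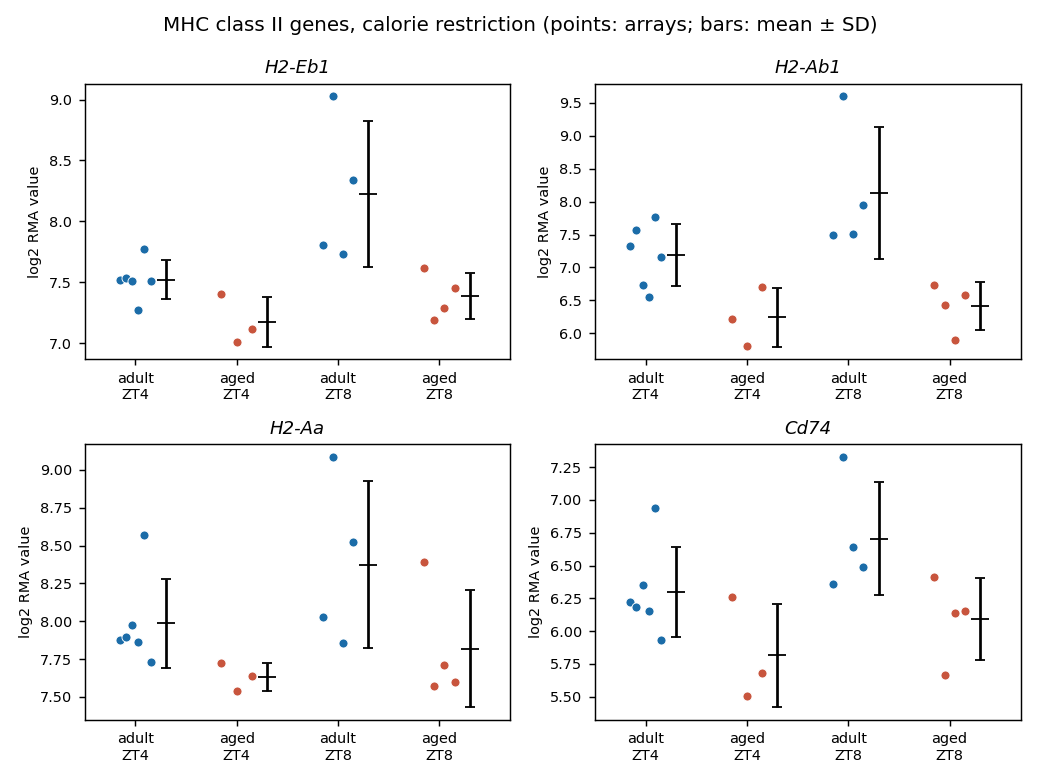
Log2 RMA value (vertical axis) of 4 MHC class II genes on each array of the 4 CR groups; points are arrays and black bars the mean ± SD. Adult ZT8 arrays are spread most widely, from 7.73 to 9.03 for H2-Eb1, and one adult ZT8 array is highest in every panel.

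The starts of H2-Eb1 and H2-Aa are shown because the class II genes lead the lower side; of 3 class II genes looked for, the table of starts held these 2, and H2-Ab1 was not analysed here. Each window of 300 bases runs from 250 bases before the gene's start, 5′ to 3′ on the gene's strand, from RefSeq on GRCm38.p6, and the last 50 bases lie within the gene. Capitals mark the letters CTGATTGG of the Y box, the inverted CCAAT element of class II promoters. The H2-Eb1 window is chr17:34305617-34305916 on the plus strand, and the H2-Aa window is chr17:34287774-34288073 on the minus strand.
H2-Eb1: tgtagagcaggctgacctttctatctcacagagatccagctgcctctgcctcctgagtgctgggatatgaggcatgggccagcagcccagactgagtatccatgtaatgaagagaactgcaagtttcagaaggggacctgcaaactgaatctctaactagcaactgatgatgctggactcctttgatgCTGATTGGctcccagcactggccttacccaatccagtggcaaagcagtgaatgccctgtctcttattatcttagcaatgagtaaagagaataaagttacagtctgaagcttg
H2-Aa: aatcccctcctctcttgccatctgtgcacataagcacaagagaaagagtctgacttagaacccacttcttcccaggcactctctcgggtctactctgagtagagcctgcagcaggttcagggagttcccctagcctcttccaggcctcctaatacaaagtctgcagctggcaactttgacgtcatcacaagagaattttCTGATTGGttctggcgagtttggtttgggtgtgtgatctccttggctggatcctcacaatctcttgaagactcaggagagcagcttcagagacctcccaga
The element begins 62 bases before the start of H2-Eb1 and 51 bases before that of H2-Aa. On either strand these 8 letters occur in 4.10% of 32851 promoter windows of the same length, with overlap of other motifs not examined.

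Over the list of Langerhans and dendritic cell markers 9 of 11 were tested, with a median difference of -0.05 against -0.02 over all genes. A stricter filter on low values kept 6 of them, with a median of -0.50, so the median depends on which markers are kept. The 4 with an unadjusted p under 0.05, all lower (3.39% of all genes), were the class II genes. These were already picked above by their p or values, so this count is no separate support. Epcam differed by 0.05 ± 0.17, the growth factor receptor Csf1r by -0.05 ± 0.09 and the class II activator Ciita by -0.03 ± 0.08. Cd207, the defining Langerhans lectin, lay below the filter on low values and was not tested. It read 4.43, 4.20 and 4.42 on aged and 4.55 to 4.85 (median 4.65) on adult arrays at ZT4, without overlap, and 4.75, 4.54, 4.57 and 4.64 against 4.99, 4.77, 4.70 and 4.78 at ZT8, with overlap. The difference of that probe set was -0.26 ± 0.07. The leukocyte marker Ptprc was below the filter too. On a linear scale the 4 class II genes summed to 416 to 531 on aged and 553 to 939 on adult ZT4 arrays, and to 473 to 724 on aged and 726 to 2003 on adult ZT8 arrays. The other 7 markers summed to 1055 to 1348 on aged and 731 to 1341 on adult arrays at ZT4, and to 842 to 1019 and 918 to 1016 at ZT8. Epcam weighs heavily in that linear sum, with a log2 mean of 9.66 over the series against 4.70 for Cd207. The sum therefore says little about dim markers such as Cd207. In these bulk samples, fewer cells of a type and less RNA per cell cannot be told apart, and the part of Langerhans cell number in the result was not tested.

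The class II genes were set against the control diet and the dark phase. H2-Eb1 lay at 7.42 to 7.69 on aged and 7.65 to 7.88 on adult control arrays at ZT4, and at 7.76 to 8.55 and 7.59 to 7.89 at ZT8. Its age difference on control diet was 0.08 ± 0.13 and in the dark phase under CR -0.16 ± 0.11. The control value averages opposite directions, with means of 7.55 on aged and 7.74 on adult arrays at ZT4 and 8.04 and 7.70 at ZT8. At ZT4 the aged mean of H2-Eb1 was lower under CR too, at 7.18 against 7.52. For H2-Ab1 the age differences were -0.14 ± 0.35 on control diet and -0.50 ± 0.30 in the dark phase. Its control value also averages opposite directions at the 2 times. On control diet H2-Ab1 lay at 5.10 to 7.59 (mean 6.23) on aged and 6.25 to 7.97 (mean 7.21) on adult arrays at ZT4. At ZT8 it lay at 7.63 to 8.91 (mean 8.17) on aged and 7.32 to 7.57 (mean 7.45) on adult arrays. The means under CR were 6.24 and 7.18 at ZT4, so at that time the lower level in aged mice was seen on both diets. Cd74 on control diet had means of 6.31 on aged and 6.36 on adult arrays at ZT4, and 6.63 and 6.31 at ZT8. The CR difference minus the control difference was -0.67 ± 0.18 for H2-Eb1 (limma adjusted p = 1.00) and -0.68 ± 0.20 for Cd74 (limma adjusted p = 1.00). Both were among the 4 smallest p of that contrast, and neither passed (0 of 13387 genes called, 0%, with 346 or 2.58% at an unadjusted p under 0.05). The other leaders of this contrast were Chmp4c, a subunit of the membrane-cutting ESCRT-III complex (0.54 ± 0.15), and Depdc1b (0.50 ± 0.16).

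Rgcc, a regulator of the cell cycle, had the next smallest p. It read 7.61, 8.44 and 7.43 on aged arrays at ZT4 and 8.38 to 9.09 (median 8.83) on adult ones. At ZT8 it read 7.26, 7.36, 7.57 and 7.62 on aged and 8.92, 9.32, 9.12 and 8.28 on adult arrays. All aged arrays lay below all adult arrays at ZT8, and only aged replicate 2 reached the adult range at ZT4. The difference was -1.20 ± 0.26 (limma adjusted p = 0.115).

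The separate arrays on control diet gave the same direction for Rgcc. There it lay at 6.68 to 7.98 on aged and 7.80 to 9.18 on adult arrays at ZT4, and at 6.94 to 7.45 and 8.48 to 9.29 at ZT8. With a difference of -1.42 ± 0.28, Rgcc fell with age in the light phase on control diet and was the only gene called there (limma adjusted p = 0.0396, 0.00747% of genes called, 2.05% at an unadjusted p under 0.05). The diets did not differ beyond their error, with a CR minus control difference of 0.22 ± 0.39 (95% interval -0.55 to 0.99). In the dark phase under CR no gene was called and 1.18% had an unadjusted p under 0.05. There the age difference of Rgcc was -0.04 ± 0.24, with aged arrays at 6.84 to 7.73 at ZT16 and adult ones at 6.93 to 8.04. At ZT20 aged arrays lay at 7.16 to 8.19 and adult ones at 6.68 to 8.33. The dark value averages opposite directions, with means of 7.27 on aged and 7.51 on adult arrays at ZT16. At ZT20 the means were 7.69 and 7.54. The light minus dark difference was -1.16 ± 0.36 (limma adjusted p = 0.999) and did not pass.

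**Figure D2:**
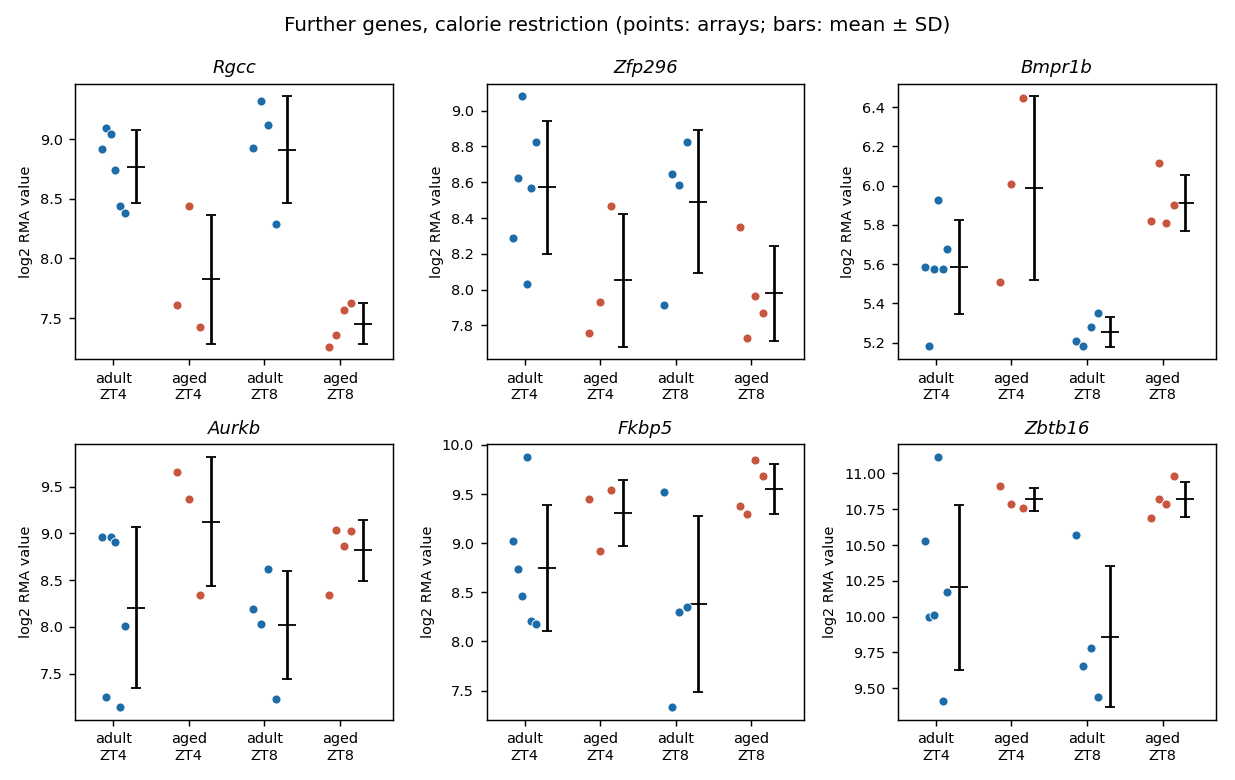
Log2 RMA value (vertical axis) of 6 further genes on each array of the 4 CR groups; points are arrays and black bars the mean ± SD. Rgcc shows 1 aged ZT4 array, at 8.44, within the adult range of 8.38 to 9.09, and aged ZT8 arrays all at or below 7.62.

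Among the genes with the smallest p on the lower side were also Zfp296, a zinc finger protein, and the clock output factor Dbp. Zfp296 read 7.76, 7.93 and 8.47 on aged and 8.03 to 9.08 (median 8.60) on adult arrays at ZT4, and 8.35, 7.73, 7.97 and 7.87 against 7.91, 8.64, 8.59 and 8.82 at ZT8. The ages overlapped at both times, and the difference was -0.52 ± 0.13 (limma adjusted p = 0.431). Dbp read 7.25, 7.82 and 8.14 on aged and 7.42 to 9.10 (median 8.61) on adult arrays at ZT4. At ZT8 it read 8.28, 7.87, 8.86 and 8.39 on aged and 9.08, 9.27, 9.32 and 10.01 on adult arrays, and there all aged arrays were below all adult ones. The Dbp difference was -0.84 ± 0.22 (limma adjusted p = 0.431).

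The time course from ZT4 to ZT8 could be read within each age. In aged mice 4 genes rose and in adult mice 3 (0.0299% and 0.0224% of 13387 genes called, none lower), while 3.97% and 3.95% had an unadjusted p under 0.05. Per2, a repressor of the clock, rose in both. It read 6.47, 6.99 and 6.98 at ZT4 and 7.85, 8.29, 8.50 and 8.45 at ZT8 in aged mice, and 6.74 to 7.25 (median 6.98) and 8.42, 8.32, 8.28 and 7.57 in adult mice. The ranges at the 2 times did not overlap in either age. The rise was 1.46 ± 0.20 in aged (limma adjusted p = 3.51e-06) and 1.14 ± 0.17 in adult mice (limma adjusted p = 3.68e-05). The difference between these rises was 0.32 ± 0.27 (limma adjusted p = 0.742).

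Mthfd1l, an enzyme of mitochondrial folate metabolism, also rose in both ages, by 0.86 ± 0.14 in aged and 0.65 ± 0.12 in adult mice (limma adjusted p = 1.57e-04 and 0.00220). Ciart, a circadian repressor, rose by 0.84 ± 0.17 in aged mice (limma adjusted p = 0.0200) and had 0.65 ± 0.14 in adult mice (limma adjusted p = 0.0506). Vamp1, a vesicle fusion protein, rose by 0.58 ± 0.13 in aged mice (limma adjusted p = 0.0407) and had 0.28 ± 0.11 in adult mice. Nim1k, a protein kinase, rose by 1.55 ± 0.32 in adult mice (limma adjusted p = 0.0220) and had 1.16 ± 0.38 in aged mice. The difference of the time course between ages did not pass for any of these 5 genes (limma adjusted p of 0.742 for Vamp1 to 0.772 for Nim1k). Calls of Ciart and Vamp1 in aged mice were lost without any one of aged ZT4 replicates 1 and 2 or aged ZT8 replicates 1, 3 and 4. The call of Nim1k was lost without adult ZT4 replicate 3 or 4 or adult ZT8 replicate 1, 2 or 3, and that of Mthfd1l in adult mice without adult ZT8 replicate 3. With the 17 arrays alone, Per2, Mthfd1l and Per3 were called in aged mice, and the calls of Ciart and Vamp1 there (limma adjusted p = 0.801 and 0.47) and of Nim1k and Mthfd1l in adult mice (0.174 and 0.157) were lost. Vamp1 was also not called with mean probe sets, array medians subtracted, array background as a covariate or a robust variance estimate (limma adjusted p = 0.243, 0.0579, 0.0754 and 0.0534).

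**Figure D3:**
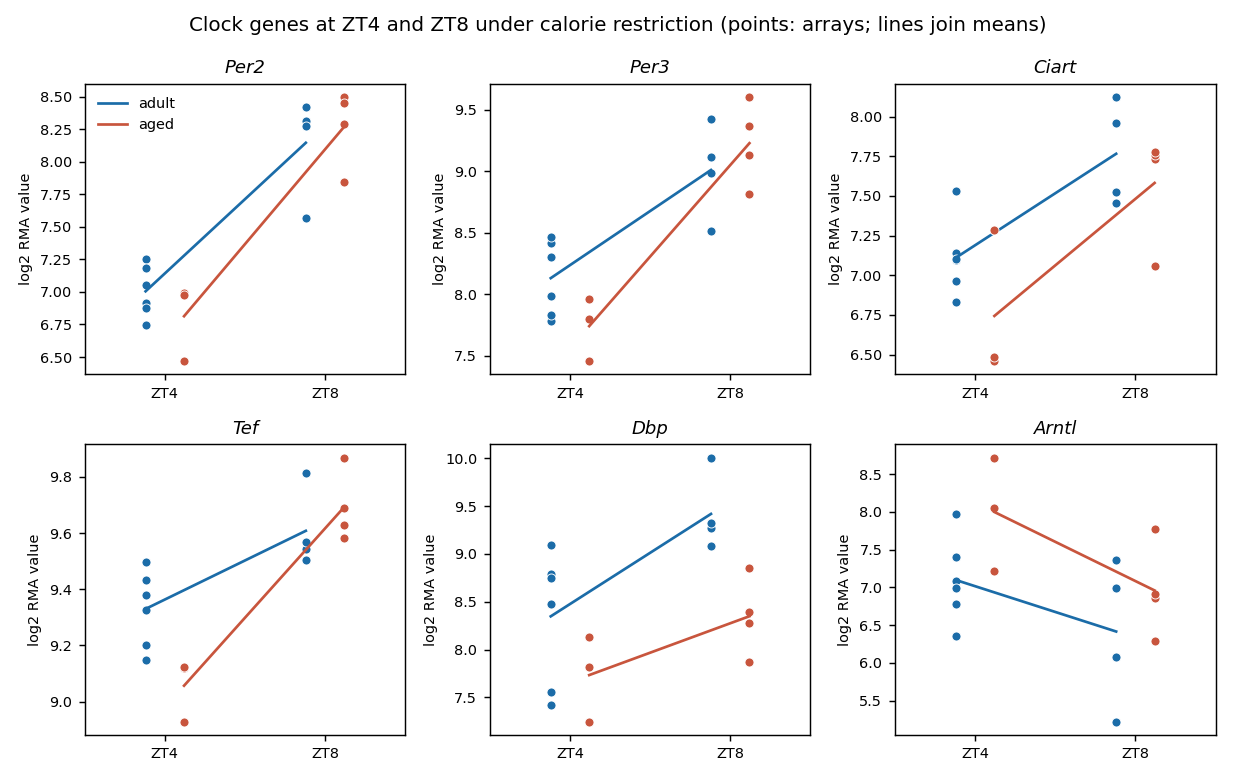
Log2 RMA value (vertical axis) of 6 clock genes at ZT4 and ZT8 under CR; points are arrays and lines join the means of adult (blue) and aged (red) mice. Per2 rises in both ages, by 1.14 in adult and 1.46 in aged mice, and the Dbp line of aged mice lies below that of adult mice at both times.

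Of 21 core clock genes 18 were tested, with a median age difference of 0.02 against -0.02 over all genes, and 2 higher and 2 lower at an unadjusted p under 0.05 (2.07% and 3.39% of all genes). The activator Arntl read 7.22, 8.06 and 8.72 on aged and 6.35 to 7.97 (median 7.04) on adult arrays at ZT4, and 6.85, 7.77, 6.29 and 6.92 against 6.99, 7.36, 6.08 and 5.22 at ZT8. The ages overlapped, and the difference was 0.72 ± 0.33 (limma adjusted p = 0.891), while a second probe set gave 0.27 ± 0.15. Ciart differed by -0.28 ± 0.11 (limma adjusted p = 0.877) and Rora, an activator of Arntl, by 0.21 ± 0.10 (limma adjusted p = 0.894). Other bright Rora probe sets gave 0.39 ± 0.14 and 0.38 ± 0.14, and dimmer ones -0.10 ± 0.14 and -0.01 ± 0.07. Among the Period genes Per1 differed by 0.21 ± 0.17, Per2 by -0.03 ± 0.13 and Per3 by -0.09 ± 0.23. The repressors Cry1 and Cry2 had 0.27 ± 0.26 and 0.02 ± 0.14. Clock and its relative Npas2 had 0.23 ± 0.15 and 0.07 ± 0.11. The Period, Cry, Clock and Npas2 differences all had an unadjusted p over 0.05. The repressor Nr1d2 had 0.03 ± 0.15, Nfil3 0.10 ± 0.21 and Bhlhe40 0.01 ± 0.18. The Dbp relatives Tef and Hlf had -0.09 ± 0.11 and -0.02 ± 0.14, both smaller in size than the Dbp difference. Their second probe sets gave -0.26 ± 0.20 and -0.27 ± 0.20, so these sizes depend on the probe set. The Period kinases Csnk1d and Csnk1e had 0.15 ± 0.13 and -0.11 ± 0.13.

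The Dbp difference was -0.14 ± 0.24 on control diet and 0.02 ± 0.20 in the dark phase under CR, when Dbp was lower in both ages (5.58 to 5.98 on aged and 5.64 to 5.99 on adult arrays at ZT20). The control value averages opposite directions at ZT4 and ZT8. On control diet the Dbp means were 6.17 on aged and 6.72 on adult arrays at ZT4, with overlap, and 8.41 and 8.13 at ZT8. Under CR the means at ZT4 were 7.73 and 8.35, so at that time the aged mean was lower on both diets. The CR minus control difference was -0.71 ± 0.32 (limma adjusted p = 1.00) and the light minus dark difference -0.86 ± 0.30 (limma adjusted p = 0.999). Arntl had -0.28 ± 0.35 on control diet and -0.25 ± 0.30 in the dark phase. None of these differences passed the threshold.

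No gene of mitosis passed the threshold. All 19 tested genes of the 20 listed had a difference above 0, with a median of 0.27 against -0.02 over all genes and 43.5% of all genes above 0. Among them 5 were higher at an unadjusted p under 0.05 (2.07% of all genes) and none was lower at that level. The members were measured on the same arrays and are not independent of each other. Their mean level per array overlapped between the ages, at 7.75 to 8.17 on aged and 7.21 to 8.17 on adult arrays at ZT4, and at 7.14 to 7.81 and 6.73 to 7.89 at ZT8. Aurkb, a kinase that corrects chromosome attachment, read 9.66, 9.37 and 8.34 on aged and 7.14 to 8.96 (median 8.46) on adult arrays at ZT4. At ZT8 it read 8.35, 9.04, 8.87 and 9.02 on aged and 8.19, 8.03, 8.62 and 7.23 on adult arrays, and the ages overlapped at both times. The difference was 0.86 ± 0.25 (limma adjusted p = 0.648), and a second probe set gave 0.87 ± 0.32. On control diet the Aurkb means were also higher in aged mice, at 9.03 against 8.72 at ZT4 and 8.38 against 7.79 at ZT8. The ages overlapped there at both times. The midzone motor Kif23 differed by 0.47 ± 0.19, the kinetochore protein Cenpf by 0.52 ± 0.21, the checkpoint kinase Bub1b by 0.29 ± 0.14 and the proliferation marker Mki67 by 0.34 ± 0.16, the last 3 named after their values were seen.

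The median of the mitosis list was 0.28 at ZT4 and 0.27 at ZT8, and 0.04 on control diet and 0.07 in the dark phase under CR. Leaving out single arrays gave medians of 0.20 (without adult ZT8 replicate 1) to 0.38 (without adult ZT8 replicate 3). Genes of DNA replication did not share that direction: of 23 tested, 7 had a difference above 0 and 16 below, with a median of -0.09. The lowest p were those of Rfc3, a subunit of the clamp loader (-0.33 ± 0.11, limma adjusted p = 0.826), and Mcm7, a subunit of the replicative helicase (-0.36 ± 0.13, limma adjusted p = 0.831). Whether the difference between both lists exceeds their error was not tested.

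**Figure D4:**
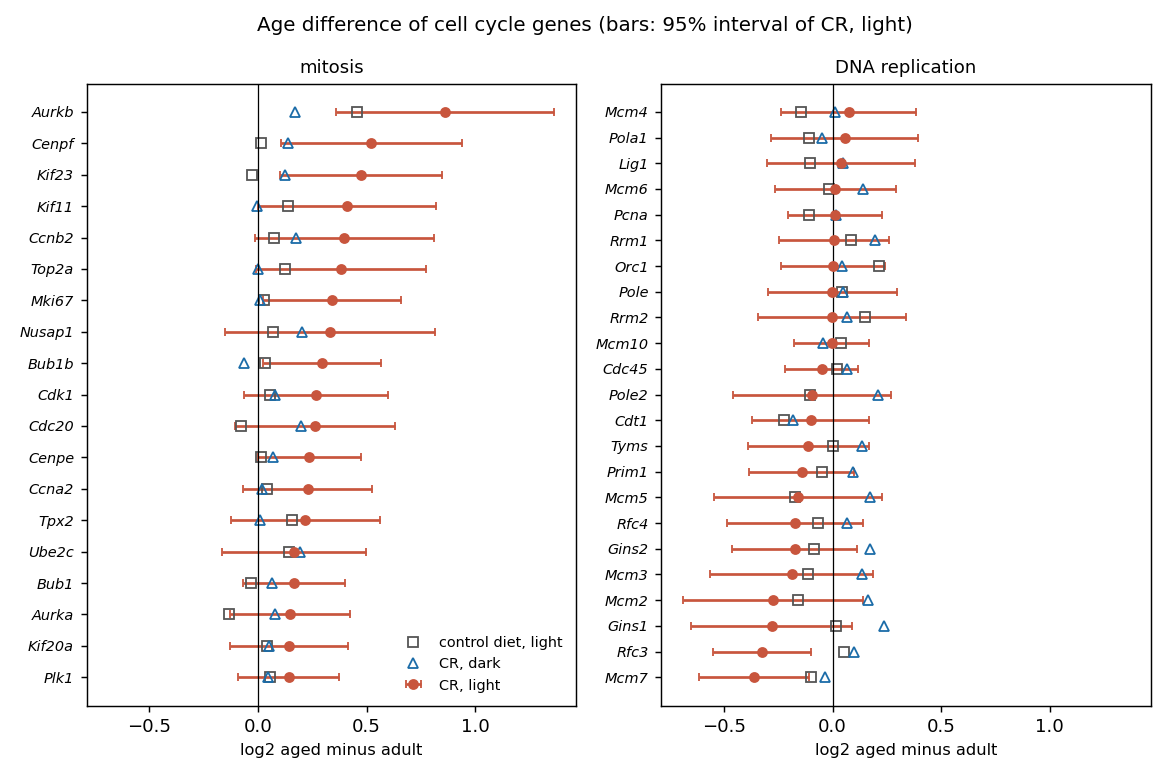
Difference of aged minus adult (horizontal axis, log2) for each tested gene of mitosis and of DNA replication; red points with 95% intervals are CR in the light phase, squares control diet in the light phase and triangles CR in the dark phase. All 19 mitosis genes lie right of 0 under CR in the light phase, with Aurkb farthest at 0.86, while 16 of 23 replication genes lie left of it.

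The 6 genes of smallest p on the higher side were Aurkb and 5 genes outside mitosis. Bmpr1b, a receptor for bone morphogenetic proteins, read 5.51, 6.01 and 6.44 on aged and 5.18 to 5.93 (median 5.58) on adult arrays at ZT4. At ZT8 it read 5.82, 6.12, 5.81 and 5.90 on aged and 5.21, 5.18, 5.28 and 5.35 on adult arrays, without overlap. The difference was 0.53 ± 0.14 (limma adjusted p = 0.431), and a second probe set gave 0.45 ± 0.16. Dip2b, of the disco-interacting protein family, read 10.24, 10.24 and 10.33 on aged and 9.64 to 10.09 (median 9.98) on adult arrays at ZT4, and 10.04, 10.17, 10.13 and 10.23 against 10.03, 9.86, 9.95 and 9.39 at ZT8. Its aged arrays were above its adult arrays at both times, and the difference was 0.35 ± 0.09 (limma adjusted p = 0.496).

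Megf6, a protein with EGF-like repeats, differed by 0.53 ± 0.14, but its second probe set gave 0.19 ± 0.12. Its aged arrays lay at 6.34 to 6.53 and its adult arrays at 5.69 to 6.20 at ZT4, without overlap, and at 5.86 to 6.70 against 5.37 to 5.99 at ZT8. Hephl1, a copper-dependent ferroxidase, differed by 0.59 ± 0.17, with aged ZT4 replicate 1 at 8.27 and the other 6 aged arrays at 6.70 to 6.99. Rec114, a protein of meiotic recombination, differed by 0.62 ± 0.18, with aged arrays at 6.72 to 8.11 and adult arrays at 6.43 to 7.48 at ZT4 and overlap at both times. None of the 3 passed (limma adjusted p of 0.496, 0.648 and 0.648).

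Among glucocorticoid receptor targets, 2 genes had the largest differences. Fkbp5, a chaperone that binds the receptor, read 9.45, 8.92 and 9.55 on aged and 8.18 to 9.88 (median 8.60) on adult arrays at ZT4, and 9.38, 9.30, 9.85 and 9.68 against 9.52, 7.33, 8.30 and 8.36 at ZT8. The transcription factor Zbtb16 read 10.91, 10.79 and 10.76 on aged and 9.41 to 11.12 (median 10.09) on adult arrays at ZT4, and 10.69, 10.82, 10.79 and 10.98 against 10.57, 9.65, 9.78 and 9.44 at ZT8. Aged arrays of Zbtb16 lay within a narrow range, and above all adult arrays at ZT8. The differences were 0.87 ± 0.26 and 0.79 ± 0.24 (limma adjusted p = 0.648 for both). In the dark phase under CR they were -0.07 ± 0.24 and -0.33 ± 0.23, and the light minus dark difference of Zbtb16 was 1.11 ± 0.33 (limma adjusted p = 0.999). On control diet in the light phase the age differences were 0.53 ± 0.28 for Fkbp5 and 0.04 ± 0.26 for Zbtb16, with Fkbp5 at 8.04 to 9.59 on aged and 8.45 to 8.86 on adult arrays at ZT4 and at 7.72 to 7.90 and 6.80 to 6.91 at ZT8. There the aged arrays of Fkbp5 lay above its adult arrays at ZT8 and overlapped them at ZT4, and its CR minus control difference was 0.33 ± 0.38 (limma adjusted p = 1.00). The control value of Zbtb16 averages opposite directions at the 2 times. Its control means were 10.53 on aged and 10.66 on adult arrays at ZT4, and 10.17 and 9.95 at ZT8. Over the whole list 11 of 12 genes were tested, with a median of 0.06 against -0.02 over all genes, 2 higher and 1 lower at an unadjusted p under 0.05 (2.07% and 3.39% of all genes).

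At ZT4 no gene passed (0% called), and 523 had an unadjusted p under 0.05 (3.91%). The smallest p were those of Efna2, an ephrin ligand (-0.44 ± 0.12), Tjp1, the tight junction scaffold ZO-1 (0.68 ± 0.21), Wfdc21, a small protein with a WAP domain (-0.72 ± 0.22), and Cc2d2a, a protein of the ciliary transition zone (0.75 ± 0.23; limma adjusted p = 0.864 for all 4). Efna2 lay at 6.32, 6.06 and 6.33 on aged arrays, below the adult range of 6.60 to 6.74. At ZT8 no gene passed either (0% called), and 701 had an unadjusted p under 0.05 (5.24%), 168 higher (1.25%) and 533 lower (3.98%). H2-Eb1 had the smallest p at -0.84 ± 0.17 (limma adjusted p = 0.0896), followed by Rgcc at -1.46 ± 0.37, Pik3r2, a regulatory subunit of PI3-kinase, at -0.70 ± 0.19, and H2-Ab1 at -1.73 ± 0.46. Pik3r2 read 6.14, 6.43, 6.56 and 6.54 on aged and 6.95 to 7.49 (median 7.02) on adult arrays at ZT8, without overlap.

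The age difference at ZT8 minus that at ZT4 passed for no gene (0% called, 593 or 4.43% at an unadjusted p under 0.05, limma adjusted p of 0.742 or more). Its leaders were dim, at 4.61 to 6.17 over the 17 arrays where the filter lay at 4.73: the repressor Zbtb32 (0.86 ± 0.24), the retinol-binding Rbp7 (0.52 ± 0.16), the calcium-binding Cib4 (0.40 ± 0.13) and the homeobox gene Dlx6 (0.56 ± 0.18). Dlx6, for example, read 5.02, 4.61 and 4.87 on aged and 5.05 to 5.32 (median 5.19) on adult arrays at ZT4, and 5.26, 4.94, 5.19 and 5.11 against 4.72, 4.70, 5.27 and 4.99 at ZT8. Its aged arrays were below all adult ones at ZT4 and overlapped them at ZT8.

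In 5 genes the aged arrays lay on one side of the adult arrays at both times. The 2 above were Dip2b and Unc5c, a netrin receptor (0.0149% of genes), and the 3 below were Arhgap24, Pkig, an inhibitor of protein kinase A, and the ribosomal protein Rps21 (0.0224%). Pkig read 7.88, 8.03 and 8.08 on aged and 8.12 to 8.44 (median 8.31) on adult arrays at ZT4, and 8.11, 8.34, 8.24 and 7.86 against 8.34, 8.52, 8.41 and 8.50 at ZT8. Its difference was -0.31 ± 0.10 (limma adjusted p = 0.648). The other differences were 0.29 ± 0.12 for Unc5c, -0.26 ± 0.10 for Arhgap24 and -0.11 ± 0.07 for Rps21. At ZT4 120 genes lay above (0.896%) and 109 below (0.814%), and at ZT8 73 above (0.545%) and 515 below (3.85%).

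Set against the dark phase (ZT16 and ZT20) of the same diet, the age difference passed for no gene (0% called, 575 or 4.3% at an unadjusted p under 0.05, limma adjusted p of 0.999 or more). The leaders were Fosl2, a subunit of the AP-1 factor, Ass1, an enzyme of arginine synthesis, Dip2b and the factor Klf13. Ass1 read 6.98, 7.78 and 7.68 on aged and 7.23 to 8.24 (median 8.08) on adult arrays at ZT4, and 6.96, 8.04, 7.59 and 8.05 against 8.35, 8.35, 8.39 and 8.84 at ZT8, so that the ages overlapped only at ZT4. Its age difference was -0.65 ± 0.18 in the light and 0.25 ± 0.17 in the dark phase, a gap of -0.91 ± 0.25 (limma adjusted p = 0.999). Fosl2 had 0.46 ± 0.15 in the light and -0.32 ± 0.14 in the dark phase, a gap of 0.77 ± 0.21 (limma adjusted p = 0.999). The gap was 0.46 ± 0.13 for Dip2b and 0.59 ± 0.17 for Klf13.

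Other pathways had no gene past the threshold. Their counts stand beside all genes tested, of which 43.5% had a difference above 0, and 2.07% were higher and 3.39% lower at an unadjusted p under 0.05. Of 15 tested genes of cholesterol synthesis 14 had a difference above 0, with a median of 0.16, led by the sterol reductase Hsd17b7 (0.38 ± 0.17) and the demethylase Cyp51 (0.45 ± 0.20). The median of this list was 0.09 on control diet and 0.13 in the dark phase. Of 14 ribosomal protein genes 13 had a difference below 0, with a median of -0.08 and 4 lower at an unadjusted p under 0.05 (3.39% of all genes). Rpl32 read 11.05, 11.09 and 11.06 on aged and 11.15 to 11.59 (median 11.28) on adult arrays at ZT4, with a difference of -0.27 ± 0.08 (limma adjusted p = 0.648), and Rps19 differed by -0.29 ± 0.09. Of 21 genes of oxidative phosphorylation 18 had a difference below 0, with a median of -0.15 and 1 at an unadjusted p under 0.05, the ATP synthase subunit Atp5o (-0.25 ± 0.11). On control diet that median was -0.13, and in the dark phase 0.06.

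Of 14 immediate early genes 11 had a difference above 0 (43.5% of all genes), with a median of 0.08 and 4 higher at an unadjusted p under 0.05 (2.07% of all genes). Among them Egr2 differed by 0.49 ± 0.18 and Atf3, at 11.33 on adult ZT8 replicate 4 and 12.11 to 12.45 on the other 16 arrays, by 0.20 ± 0.08. In insulin and IGF signalling (16 of 21 genes tested, median 0.06) Pik3r1, a regulatory subunit of PI3-kinase, differed by 0.45 ± 0.19 and the adaptor Irs1 by 0.47 ± 0.21. Among p53 targets and senescence genes (12 of 17 tested, median 0.06) the apoptosis inducer Pmaip1 differed by 0.51 ± 0.19 and Phlda3 by -0.31 ± 0.14. The median of that list was 0.22 at ZT4 and -0.06 at ZT8, so the directions were opposite. In the Wnt list (20 of 22 tested, median -0.09) the ligand Wnt5a had -0.61 ± 0.27 and the effector Ctnnb1 0.12 ± 0.05. The integrin subunit Itgb6 had 0.75 ± 0.37, the antioxidant enzyme Gstm1 -0.33 ± 0.11 and the growth factor Tgfb2 0.28 ± 0.11.

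Inflammatory genes went both ways, with 15 of 21 tested, 9 above 0 and 6 below, and a median of 0.05. Of these, 2 were higher and 1 lower at an unadjusted p under 0.05 (2.07% and 3.39% of all genes). The signal transducer Stat3 differed by 0.28 ± 0.11 (limma adjusted p = 0.873) and the NF-kappaB inhibitor Tnfaip3 by 0.45 ± 0.19 (limma adjusted p = 0.890). Of 14 genes of autophagy and the lysosome 13 had a difference below 0, with a median of -0.07, among them the lysosomal regulator Tfeb (-0.23 ± 0.11) and the protease Ctsd (-0.20 ± 0.10). That direction came from ZT8, where 0 of the 14 lay above 0 (median -0.16). At ZT4 8 of the 14 lay above 0 (median 0.01). Among chromatin genes (14 of 16 tested, median 0.07) the DNA demethylase Tet2 differed by 0.58 ± 0.27, and in the DNA repair list (20 of 23 tested, median -0.04) the damage kinase Atm by 0.28 ± 0.12. The DNA repair median was 0.11 at ZT4 and -0.08 at ZT8. The Notch target Hes1 had -0.32 ± 0.16 in a list with a median of -0.03 over 13 genes. Each of these genes had an adjusted p far above 0.05 in the limma fit.

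**Figure D5:**
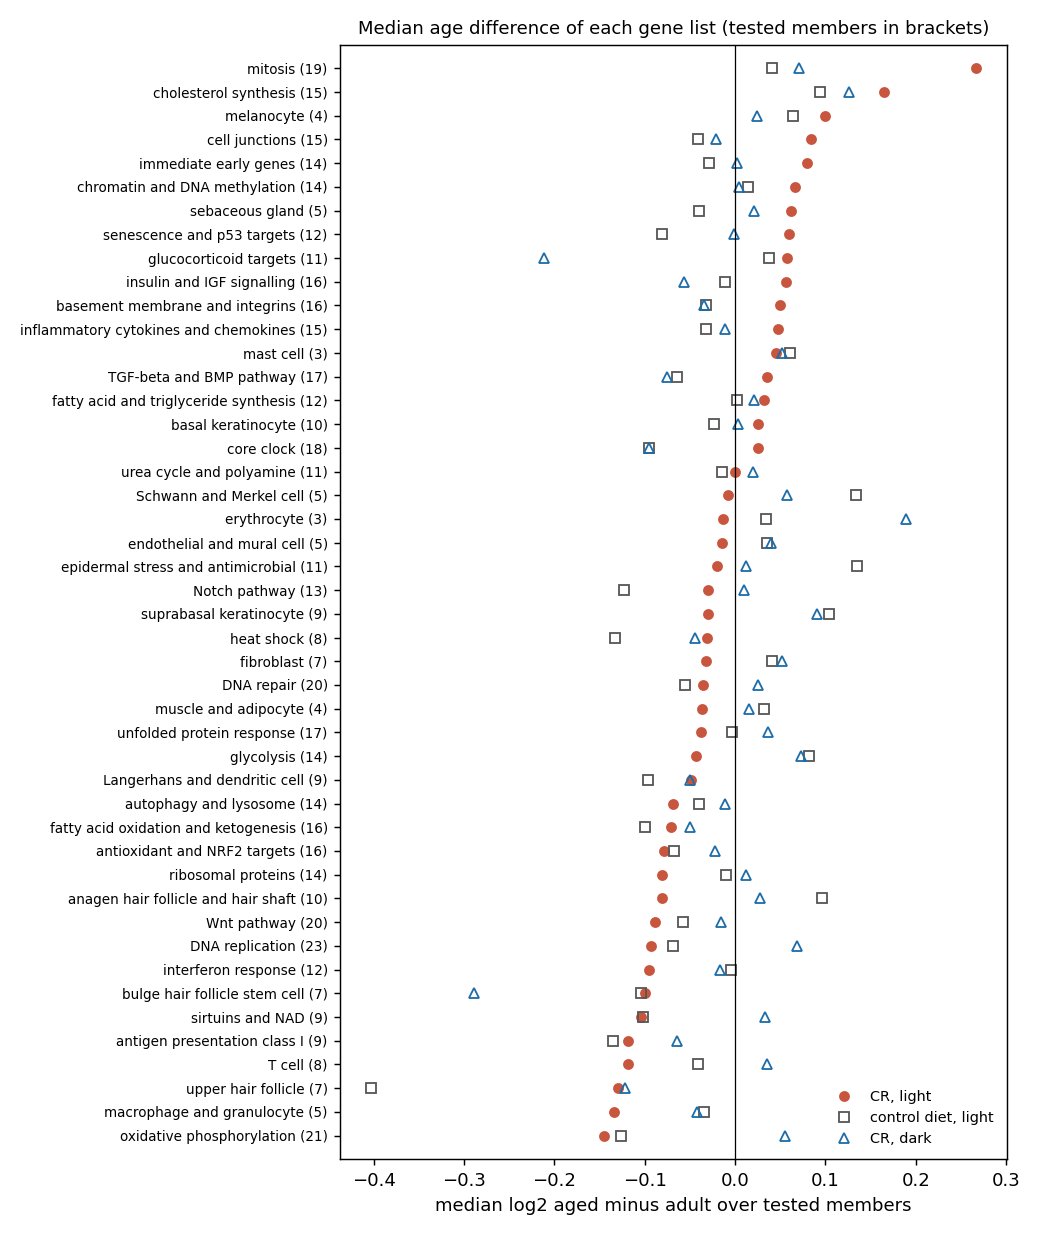
Median difference of aged minus adult (horizontal axis, log2) over the tested members of each of 46 gene lists; filled circles are CR in the light phase, squares control diet in the light phase and triangles CR in the dark phase. Mitosis lies farthest right at 0.27 and oxidative phosphorylation farthest left at -0.15 under CR in the light phase.

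No cell type marker passed the threshold. Basal keratinocyte markers had a median of 0.03, with 0 of 10 at an unadjusted p under 0.05, and suprabasal markers had -0.03, with 0 of 9. Their summed linear levels overlapped, with suprabasal sums at 10710 to 11545 on aged and 9213 to 15028 on adult ZT4 arrays and 10515 to 12138 and 9604 to 12578 at ZT8. T cell markers (8 of 12 tested) had a median of -0.12 with the receptor Cd7 at -0.26 ± 0.11 (limma adjusted p = 0.879), and macrophage and granulocyte markers (5 of 11 tested) had -0.13 with the adaptor Tyrobp at -0.26 ± 0.12 (limma adjusted p = 0.891). Summed T cell markers lay at 738 to 991 on aged and 584 to 848 on adult arrays at ZT4, and at 605 to 728 and 667 to 914 at ZT8. The part of these cells in any difference above was not tested.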

How the data were processed

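The deposited values, log2 levels from RMA (version not given in the sources used here) per the submitters' processing notes, were used unaltered. The labels' protocols state 25 ng RNA per sample and 17 cycles of amplification. Array medians over the series lay at 5.466 to 5.714. Of 45140 probe sets, 28898 carried 1 symbol; the brightest stood for each of 17097 genes, and 13387 genes with a mean of at least 4.73 (30th percentile) were tested. Of 684 listed genes 534 were tested. A mean per group of age, diet and time (24 groups, 78 residual degrees of freedom) was fitted over all arrays with limma 3.58.1 in R 4.3.3, tested on simulated data. Named genes are the 6 smallest p per direction, 4 per further contrast, all clock genes and up to 2 per list, apart from those named as chosen later; clone names and sex-linked genes were left out. The comparison, lists and tests were chosen with earlier results of these data known; the contrasts of ZT8 against ZT4 were added after seeing these values. The number of arrays limits the precision.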

Additional observations from a re-analysis of the deposited data

Results flagged for a closer look

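A single array stood apart from the rest of its group in 24 of 267 sets of 1 gene in 1 group of 4 to 6 arrays, where about 13 would do so if chance flags 1 set in 20. Nothing below was tested for its cause. In the adult ZT8 group replicate 4 stood apart for 9 genes: it was lowest for Atf3 (11.33), Fosl2 (9.07), Tnfaip3 (8.50), Per2 (7.57), Rora (10.65), Tjp1 (7.44) and Nim1k (5.61), and highest for Ass1 (8.84) and Vamp1 (6.79). Without this array 320 genes instead of 731 had an unadjusted p under 0.05. In the same group replicate 1 was highest for Hephl1 (7.23), Hes7 (9.04) and Irs1 (8.53), and replicate 3 for Csnk1e (7.65).

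In the adult ZT4 group replicate 5 stood apart for 6 genes. It was lowest for Csnk1d (10.97), Epcam (8.89) and Tjp1 (7.03), and highest for the class II gene H2-Aa (8.57), the myeloid adaptor Tyrobp (5.70) and the suprabasal keratin Krt1 (12.21). Replicate 4 of that group was lowest for Ass1 (7.23). In the aged ZT8 group replicate 2 was lowest for Ciart (7.06) and highest for Csnk1d (11.92), replicate 1 highest for Tyrobp (5.10) and replicate 4 highest for Krt14 (12.56).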

How the results depend on the processing

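The count of 0 lower genes became 1 (Rgcc) with the 17 arrays alone, 2 with the mean of a gene's probe sets, 2 (H2-Eb1 and Rgcc) with array background as a covariate, and 0 to 1 without single arrays. With array weights estimated by REML, whose estimate stopped before converging, it was 18, with 20 genes higher, 103 called at ZT8 and 18 for the ZT8 minus ZT4 difference. Weights estimated gene by gene, chosen after seeing the data, gave 2 lower genes (H2-Eb1 and H2-Ab1), 0 higher and 27 at ZT8, so the number of calls depends on how arrays are weighted. H2-Eb1 passed alone at ZT8 with array medians subtracted (1 gene), and leaving out single arrays gave 0 to 3 genes there. The 3 genes called from ZT4 to ZT8 in adult mice became 1 with the 17 arrays alone, 5 with a stricter filter or the Xist covariate, 9 with mean probe sets, 10 and 9 with the REML and gene by gene weights, and 2 to 5 without single arrays. The 4 in aged mice became 86 and 11 with these weights and 2 to 4 without single arrays. Differences near 0 changed sign: Epcam was -0.0009 with mean probe sets, -0.0274 and -0.0291 with REML and gene by gene weights and -0.0398 without adult ZT4 replicates 1 and 5 (left out together after seeing the data). Per2 was 0.0226 with mean probe sets, Bhlhe40 -0.0068 with medians subtracted and -0.0427 without those arrays, and Csnk1e 0.0073 with REML weights. Nfil3 was -0.0102, -0.0573 and -0.0456 with REML weights, gene by gene weights and without those arrays, and Nr1d2 -0.0069 and -0.0070 in the last of these. Without single arrays Cry2 ranged from -0.0229 to 0.0895, Per2 from -0.1295 to 0.0523, Bhlhe40 from -0.1198 to 0.2239, Hlf from -0.1019 to 0.0373, Nr1d2 from -0.0989 to 0.1771, Nfil3 from -0.0685 to 0.2997, Ciita from -0.0728 to 0.0169 and Epcam from -0.0270 to 0.1122. The labels do not say whether replicate numbers pair the arrays. Deviations of the 7 same-numbered pairs correlated from -0.36 to 0.42, and not every array correlated best with its own number. So few pairs cannot decide whether the numbers mark a shared day. With the replicate block H2-Eb1 was -0.58 (limma adjusted p = 0.158), Cry2 -0.0488, and 0 genes were called, with 937 instead of 731 at an unadjusted p under 0.05. The cause of these shifts was not tested. Simulated data had the spread within groups over all arrays of the series and 200 genes changed at once. With 7 aged and 10 adult arrays compared in the fit over all arrays, a difference of 0.3 was called for 21.2% of genes. Those data held no deviations shared between genes.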

Other observations

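Hes7, a Notch-dependent repressor known from somite segmentation, was 1 of the 3 genes that differed by more than 1 log2 unit, at 1.11 ± 0.49 (limma adjusted p = 0.891). It read 8.99, 8.29 and 7.39 on aged and 4.45 to 8.58 (median 7.27) on adult arrays at ZT4, and 8.53, 8.48, 8.90 and 8.72 against 9.04, 7.74, 7.53 and 7.77 at ZT8. Adult ZT4 replicates 2 and 5 both read 4.45, and the adult arrays spanned more than the age difference.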
